A study of Mus musculus with 2 samples.

Results

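Purine and pyrimidine nucleotide synthesis is described here by 40 genes, taken by symbol from the all-gene expression table, which holds 26117 rows after small RNA features were left out. All 40 symbols were found, and 37 had a mean level of at least 1 RPKM (reads scaled to gene length in kilobases and to 1000000 sequenced reads) over both libraries. The genes were measured by RNA sequencing of PS10, a female extraembryonic endoderm stem (XEN) cell line of ICR strain that models the primitive endoderm layer of the blastocyst. The cells had been transfected by lipid reagent with a locked nucleic acid (LNA) against Gata6-AS, the noncoding RNA beside the endoderm factor gene Gata6, (siRNA-Gata6AS in the titles), or with a control LNA (siRNA-Control), and each group is 1 library of the same line. With 1 library per group no difference below has a replicate check or a test, and each compares these libraries rather than the conditions. In bulk RNA, fewer cells of a type and less RNA per cell cannot be told apart.

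Cells build purines from small precursors on a ribose phosphate, through inosine monophosphate (IMP), which is then turned into AMP or GMP. Pyrimidines are built as a ring that is joined to the same ribose phosphate to give uridine monophosphate (UMP), the source of the uridine, cytidine and thymidine nucleotides. Salvage enzymes recover free bases and nucleosides, and ribonucleotide reductase makes the deoxynucleotides for DNA, so that both routes are known to be active in dividing cells such as stem cell lines.

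The targeted RNA, listed under 1010001N08Rik, stood at 5.83 RPKM in the Gata6-AS LNA library, against 10.1 RPKM in the control LNA library, or 57.8% of control. The exact (Clopper-Pearson) 95% interval from the reads behind these values ran from 50.5% to 66.1%. In mm9 its gene model spans 11049085 to 11052565 of chromosome 18, minus strand. Gata6 begins at 11052508 on the plus strand, so the 2 models overlap only at their starts, and reads of the overlap could belong to either gene. Gata6 stood at 55.7 RPKM in the Gata6-AS LNA library and 81.9 RPKM in the control LNA library (68.0% of control). All such intervals cover counting error only. The step between low RPKM values corresponds to 1.23e+08 reads in the Gata6-AS LNA library and 1.04e+08 in the control LNA library. All 7 XEN markers on the list, Gata4, Gata6, Sox7, Sox17, Foxa2, Pdgfra and Dab2, had means between 35.5 and 301 RPKM, and their summed level was 549 RPKM in the Gata6-AS LNA library and 793 RPKM in the control LNA library. Gata4, at 246 RPKM in the Gata6-AS LNA library and 357 RPKM in the control LNA library, and Sox7, at 59.4 and 145 RPKM in the same libraries, carried most of that gap. Of the 7, 5 lay below their control level, while Dab2 was at 140.5% and Foxa2 at 102% of control. The 5 trophoblast markers matched summed to 2.48 and 1.72 RPKM in the Gata6-AS LNA and control LNA libraries. The 5 epiblast markers summed to 5.13 and 4.68 RPKM, nearly all of it Nanog, with Sox2 and Esrrb listed at 0. The 6 feeder fibroblast markers summed to 4.63 and 3.83 RPKM, nearly all of it Pdgfrb, with Col3a1, Thy1 and Twist2 listed at 0 in both libraries. The part of these marker levels in the results below was not tested.

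Most nucleotide synthesis genes stood somewhat higher in the Gata6-AS LNA library. On the scale of the difference of log2(RPKM + 1), Gata6-AS LNA minus control LNA, 31 of the 37 genes averaging at least 1 RPKM lay above 0, which is 83.8%, beside 58.0% of all 10868 genes so expressed. Their median log2 difference was 0.25, beside 0.05 for all those genes. The differences were small: on this scale, 35 of the 37 were within 1.5-fold in either direction. Gart and Cad, both encoding large multifunctional enzymes of de novo synthesis, were at least 1.5-fold higher, a size that 3.42% of all genes reached upward. By the plain RPKM ratio, without the added 1 RPKM, Dctd (163% of control) and Adsl (151%) were past 1.5-fold as well. None of the 37 was at least 1.5-fold lower, beside 1.95% of all genes. Gart alone was at least 2-fold higher (0.331% of all genes) and none was 2-fold lower (0.451% of all genes). Summed over all 40 genes, the level was 1458 RPKM in the Gata6-AS LNA library, against 1216 RPKM in the control LNA library, or 0.544% and 0.463% of the summed RPKM of the table.

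**Figure D1:**
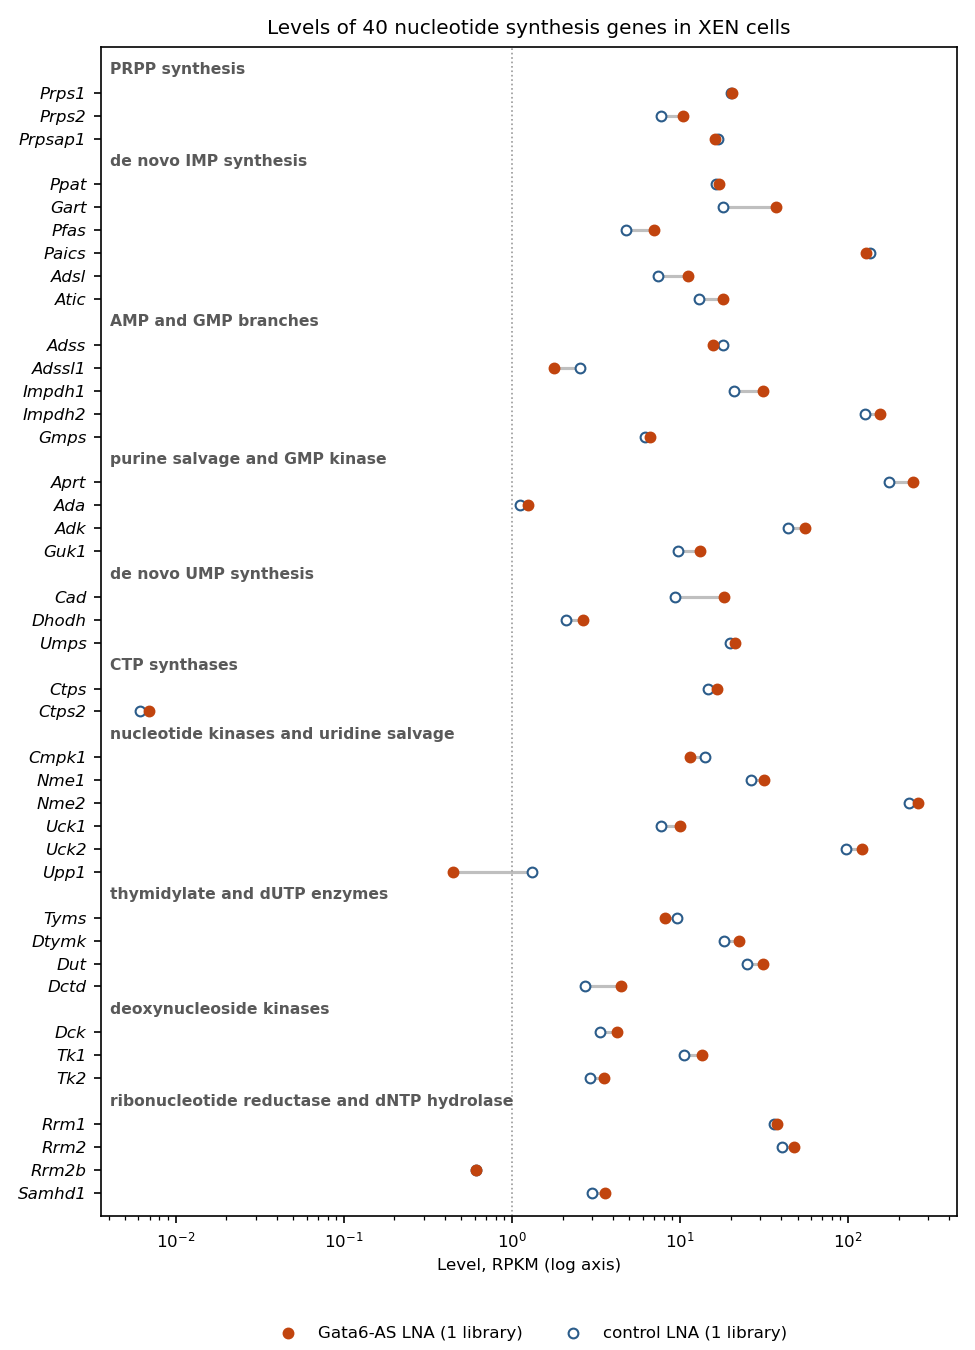
Level in RPKM (log axis) of each of the 40 genes, in rows grouped by role, with filled points for the Gata6-AS LNA library and open points for the control LNA library, 1 library each; the dotted line marks 1 RPKM. Filled points lie to the right of open ones in most rows, farthest for Gart and Cad, while Upp1 lies the other way, and Upp1, Rrm2b and Ctps2 have means below 1 RPKM.

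Levels spanned a wide range. Adenine phosphoribosyltransferase, inosine monophosphate dehydrogenase and the nucleoside diphosphate kinases are housekeeping activities, and Nme2, Aprt, Impdh2, Paics and Uck2 were the 5 members with a mean above 100 RPKM. Nme2 was the most abundant, at 261 RPKM in the Gata6-AS LNA library and 229 RPKM in the control LNA library. Ctps2 was near the limit of detection, at 0.00689 and 0.00614 RPKM in the Gata6-AS LNA and control LNA libraries, from as few as 4 and 3 reads, and no ratio is given for it.

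The supply of phosphoribosyl pyrophosphate (PRPP), the activated ribose phosphate that both routes use, held no gene past the 1.5-fold rule. Prps1, a PRPP synthetase, stood at 20.5 RPKM in the Gata6-AS LNA library and 20.1 RPKM in the control LNA library, a log2 difference of 0.03, and its interval of 98.0% to 106% of control included no change. Its paralog Prps2 was at 10.4 RPKM, against 7.75 RPKM in the control LNA library, or 134% of control (128% to 140%). Prps1 thus made up 66.3% of the summed level of the pair in the Gata6-AS LNA library and 72.1% in the control LNA library. Prpsap1, which encodes a protein associated with the synthetases, had a log2 difference of -0.05.

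De novo synthesis of IMP held the gene with the most positive difference of all members. The 6 genes of the route had a median log2 difference of 0.46. They fell into 4 that stood higher, Gart, Adsl, Pfas and Atic, and 2 that lay within 0.1 of 0, Ppat and Paics. Gart, whose trifunctional product catalyses several steps of ring assembly, stood at 37.1 RPKM in the Gata6-AS LNA library, against 18.0 RPKM in the control LNA library, and differed by 1.01 on the log2 scale. Its level was thus 206% of control, with an interval of 201% to 212% over no fewer than 18217 and 7434 reads, and Gart ranked 36 from the top among 10868 genes. In the authors' deposited table its log2 difference was 1.06 with p = 6.56e-04. The p-values of that table come from 1 library per group, with the test and any adjustment unstated.

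In the mm9 coordinates of the table, Gart spans 91621431 to 91647197 of chromosome 16, minus strand, and its end shares 2676 bp with Gm15964 on the plus strand. Gm15964 stood at 11.2 RPKM in the Gata6-AS LNA library and 5.41 RPKM in the control LNA library, a difference of like size (0.93). Use of the strand in counting remains not given in the sources used here, so reads of this overlap could belong to either gene. How much they add to the level of Gart was not tested.

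Adsl encodes adenylosuccinate lyase, which acts both in IMP synthesis and in the AMP branch. It was at 11.1 RPKM in the Gata6-AS LNA library, against 7.40 RPKM in the control LNA library, or 151% of control (144% to 157%). On the log2(RPKM + 1) scale that is 0.53, just short of the 1.5-fold rule at 0.58. Pfas, the synthase of formylglycinamidine ribotide, was at 6.97 and 4.77 RPKM in the Gata6-AS LNA and control LNA libraries (0.47). Atic, the bifunctional enzyme that completes IMP, was at 18.1 and 12.9 RPKM in the same libraries (0.46). All 3 of these genes were listed as higher in the authors' deposited table, at p = 0.0483 for Adsl, p = 0.0648 for Atic and p = 0.0739 for Pfas.

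Ppat, the amidotransferase that commits PRPP to purine synthesis, was at 17.0 RPKM in the Gata6-AS LNA library and 16.4 RPKM in the control LNA library (0.05). Paics, which encodes a bifunctional enzyme in the middle of the route, was at 127 and 136 RPKM in the Gata6-AS LNA and control LNA libraries, a log2 difference of -0.09. At 93.8% of control (92.6% to 95.03%), Paics was the only one of the 6 below its control level, and it was also the most abundant of them. Ppat and Paics are neighbours on chromosome 5 and point away from each other, with 272 bp of their mm9 gene models shared at their starts, the minus strand Ppat from 77342274 to 77380603 and the plus strand Paics from 77380332 to 77396534.

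Of the pyrimidine genes, Cad stood out in size. Its trifunctional product opens de novo pyrimidine synthesis. Cad was at 18.3 RPKM in the Gata6-AS LNA library, against 9.28 RPKM in the control LNA library, a log2 difference of 0.91 and a level of 197% of control (192% to 203%, no fewer than 18391 and 7844 reads). It ranked 63 from the top among 10868 genes, and in the authors' deposited table its log2 difference was 0.99 with p = 0.00146. Cad lies on the plus strand of chromosome 5 from 31357153 to 31380852 in mm9, and no other row of at least 1 RPKM overlaps it.

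The enzymes that follow Cad differed less. Dhodh, the dehydrogenase of the inner mitochondrial membrane, was at 2.64 RPKM in the Gata6-AS LNA library and 2.10 RPKM in the control LNA library (0.23). Umps, which makes UMP, was at 21.1 and 19.9 RPKM in the Gata6-AS LNA and control LNA libraries (0.08). Ctps, which turns UTP into CTP, was at 16.7 and 14.7 RPKM in the same libraries (0.17).

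**Figure D2:**
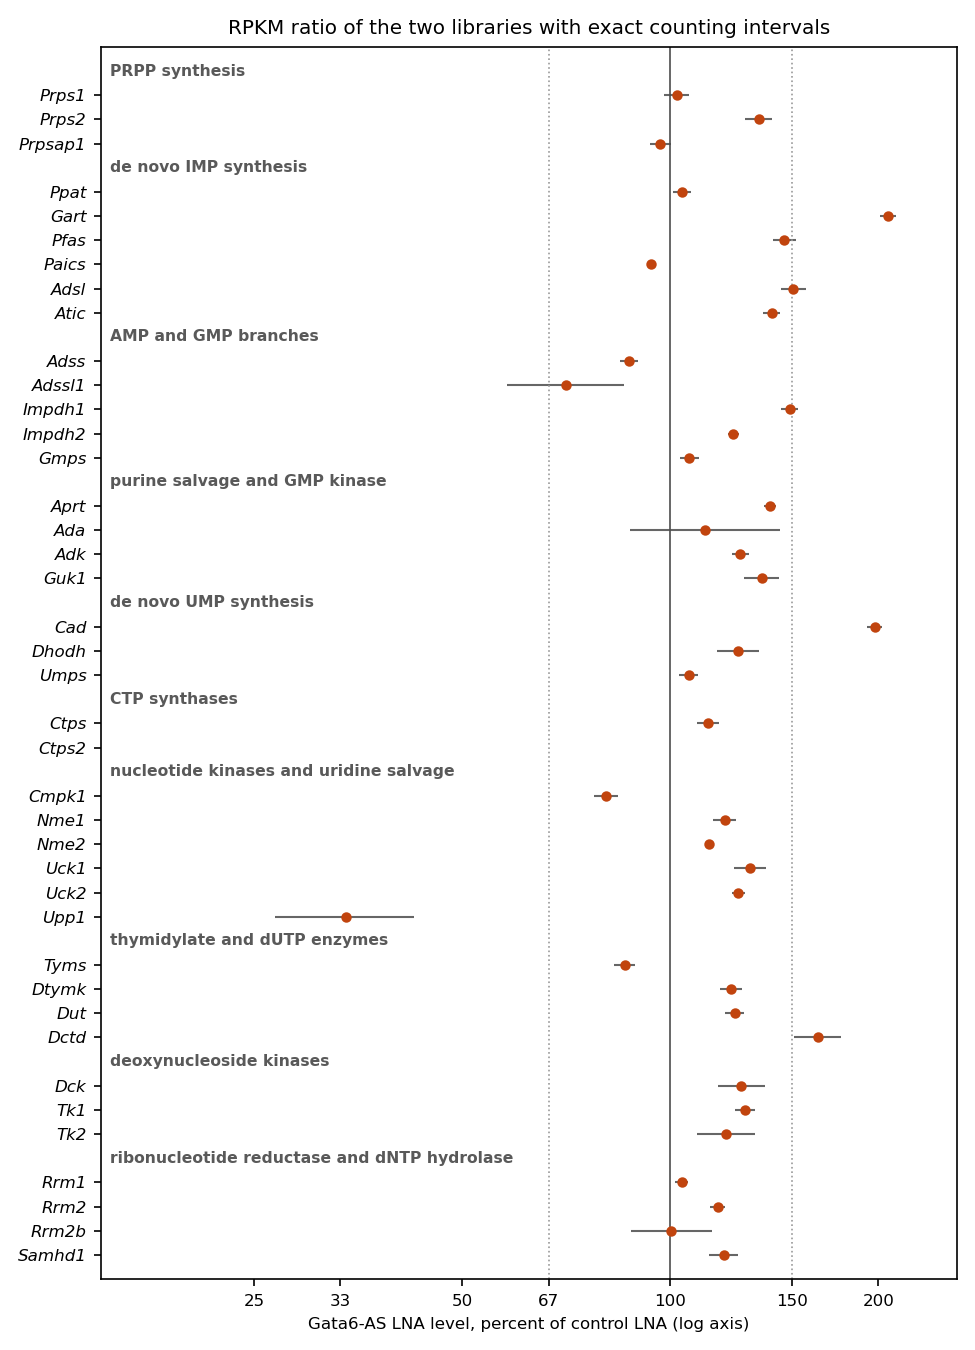
Level in the Gata6-AS LNA library as a percent of the level in the control LNA library (log axis) for 39 genes in rows grouped by role, with exact 95% counting intervals as bars; the solid line marks 100% and the dotted lines 1.5-fold either way, and Ctps2, with as few as 4 and 3 reads, has no point. Gart (206%) and Cad (197%) lie farthest to the right, followed by Dctd (163%) and Adsl (151%), and Upp1 lies farthest to the left at 33.9%.

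The promoters of 4 de novo genes are printed because the genes with the most positive differences, Gart and Cad, can be set beside Atic, with a smaller difference, and Paics, slightly below its control level. They come from RefSeq on GRCm38.p6, from 250 bases before to 50 after an annotated start, and run 5′ to 3′ on the gene's own strand. Capitals mark matches to the E-box CACGTG, to which MYC and MAX proteins are known to bind, to CCAAT, to the cyclic AMP element TGACGTCA and to the GC box GGGCGG, on either strand; in Atic GC boxes overlap each other.
Gart, chr16:91646923-91647222, minus strand: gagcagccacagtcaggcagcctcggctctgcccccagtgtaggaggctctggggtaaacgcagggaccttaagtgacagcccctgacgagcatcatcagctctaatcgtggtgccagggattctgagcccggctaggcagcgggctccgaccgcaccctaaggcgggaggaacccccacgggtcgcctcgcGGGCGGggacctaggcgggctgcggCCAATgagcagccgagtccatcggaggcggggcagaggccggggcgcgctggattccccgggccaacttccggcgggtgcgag
Cad, chr5:31054530-31054829, plus strand: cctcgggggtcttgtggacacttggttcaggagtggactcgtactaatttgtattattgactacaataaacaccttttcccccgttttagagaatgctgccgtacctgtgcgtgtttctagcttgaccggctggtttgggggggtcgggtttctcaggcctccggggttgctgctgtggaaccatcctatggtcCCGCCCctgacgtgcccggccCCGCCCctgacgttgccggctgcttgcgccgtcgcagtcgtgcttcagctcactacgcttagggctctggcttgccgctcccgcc
Atic, chr1:71556906-71557205, plus strand: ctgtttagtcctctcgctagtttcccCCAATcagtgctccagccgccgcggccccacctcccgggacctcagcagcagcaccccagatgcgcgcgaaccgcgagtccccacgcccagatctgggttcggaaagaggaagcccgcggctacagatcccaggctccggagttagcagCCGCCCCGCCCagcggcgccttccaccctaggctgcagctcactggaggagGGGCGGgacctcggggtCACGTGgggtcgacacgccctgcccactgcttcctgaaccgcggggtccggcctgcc
Paics, chr5:76951052-76951351, plus strand: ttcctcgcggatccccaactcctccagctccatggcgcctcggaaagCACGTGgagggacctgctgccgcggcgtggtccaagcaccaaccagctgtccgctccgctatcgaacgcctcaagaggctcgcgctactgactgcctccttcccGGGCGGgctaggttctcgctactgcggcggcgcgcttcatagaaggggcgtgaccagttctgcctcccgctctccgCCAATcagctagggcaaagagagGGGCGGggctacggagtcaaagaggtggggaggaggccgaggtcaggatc
CACGTG was found in the windows of Atic and Paics and not in those of Gart and Cad. Entries were found for 37 of the 40 genes, 50 promoters in all. Of these, 14.0% held CACGTG, beside 7.15% of all 32851 mouse promoters in the table, and 74.0% held GGGCGG, beside 35.7% of all. CCAAT was in 32.0% of the 50, beside 37.4% of all, and TGACGTCA was in 1 of the 50, beside 1.79% of all. The 32851 promoters were not limited to genes expressed in these cells. These shares therefore cannot set nucleotide synthesis genes apart from other expressed genes. Some of the 37 genes have several windows, which can overlap, as for Dctd. The genes with CACGTG were Atic, Dtymk, Impdh2, Nme1, Paics and Tyms, whose log2 differences ran from -0.20 in Tyms to 0.46 in Atic. A match describes letters only, and a motif outside the window is not seen.

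In the branches from IMP, Impdh1 and Impdh2 of the GMP side stood higher and Gmps lay within 0.1 of 0. Adss and Adssl1, which open the AMP side, stood lower, while Adsl, which also acts there, was at 151% of control. Inosine monophosphate dehydrogenase catalyses the rate-limiting step to GMP. Its isoform gene Impdh1 was at 31.0 RPKM in the Gata6-AS LNA library, against 20.8 RPKM in the control LNA library (0.55), or 149% of control (145% to 153%), and was listed in the authors' deposited table at 0.58 (p = 0.0380). Impdh2, the more abundant isoform, was at 155 and 126 RPKM in the Gata6-AS LNA and control LNA libraries (0.30). Gmps, which completes GMP, differed by 0.08.

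Adenylosuccinate synthetase opens the AMP branch. Adss was at 15.6 RPKM in the Gata6-AS LNA library, against 17.9 RPKM in the control LNA library (-0.19), or 87.2% of control (84.6% to 89.9%). Its paralog Adssl1, the muscle type, was at 1.78 and 2.52 RPKM in the Gata6-AS LNA and control LNA libraries. Its log2 difference of -0.34 was the most negative of the 37 genes averaging at least 1 RPKM, and the authors' deposited table listed it at -0.63 (p = 0.0725). Neither gene passed the 1.5-fold rule.

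All 4 genes of purine salvage and GMP phosphorylation lay above 0, with a median log2 difference of 0.37. Of all genes averaging at least 1 RPKM, 58.0% lay above 0. Aprt, which recovers adenine, was at 242 RPKM in the Gata6-AS LNA library, against 174 RPKM in the control LNA library (0.48), and the authors' deposited table listed it at 0.52 (p = 0.0694). The whole of Aprt lies within Gm20388 on the opposite strand, a gene model that stood at 53.1 and 54.0 RPKM in the Gata6-AS LNA and control LNA libraries. Adk, the adenosine kinase, was at 55.7 and 44.1 RPKM in the Gata6-AS LNA and control LNA libraries (0.33). Guk1, the guanylate kinase, was at 13.2 and 9.73 RPKM in the same libraries (0.40). For Ada, the adenosine deaminase, at 1.24 and 1.11 RPKM, the interval of 87.4% to 144% of control included no change.

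Kinases of the pyrimidine and general nucleotide pools were mostly higher by a small amount, while the gene for uridine breakdown was lower. Of the uridine-cytidine kinases, Uck1 was at 10.1 RPKM in the Gata6-AS LNA library and 7.71 RPKM in the control LNA library (0.34). Uck2 was at 121 and 96.7 RPKM in the Gata6-AS LNA and control LNA libraries (0.32), so the pair kept nearly the same proportions. A second row of Uck2, of 93 bp, was at 59.9 and 58.9 RPKM in those libraries and was not used.

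The nucleoside diphosphate kinases turn diphosphates into triphosphates. Nme1 was at 31.6 RPKM in the Gata6-AS LNA library and 26.4 RPKM in the control LNA library (0.25), and Nme2 differed by 0.19. The mm9 gene models of Nme1 and Nme2 share 11315 bp on the same strand, and the paralogs are close in sequence, so how reads were divided between them is uncertain. Cmpk1, the UMP and CMP kinase, was at 11.4 and 14.1 RPKM in the Gata6-AS LNA and control LNA libraries (-0.29), or 80.7% of control (77.6% to 84.0%).

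Upp1 encodes uridine phosphorylase, which splits uridine into uracil and a ribose phosphate. It stood at 0.444 RPKM in the Gata6-AS LNA library, against 1.31 RPKM in the control LNA library, or 33.9% of control (26.8% to 42.6%, no fewer than 107 and 266 reads). Its mean was below 1 RPKM, so it is not among the 37 genes counted above. On the log2(RPKM + 1) scale, which understates low genes, the difference was -0.68, and in the authors' deposited table it was -1.69 with p = 1.96e-04. Upp1 had the most negative log2 difference of the 40 genes.

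**Figure D3:**
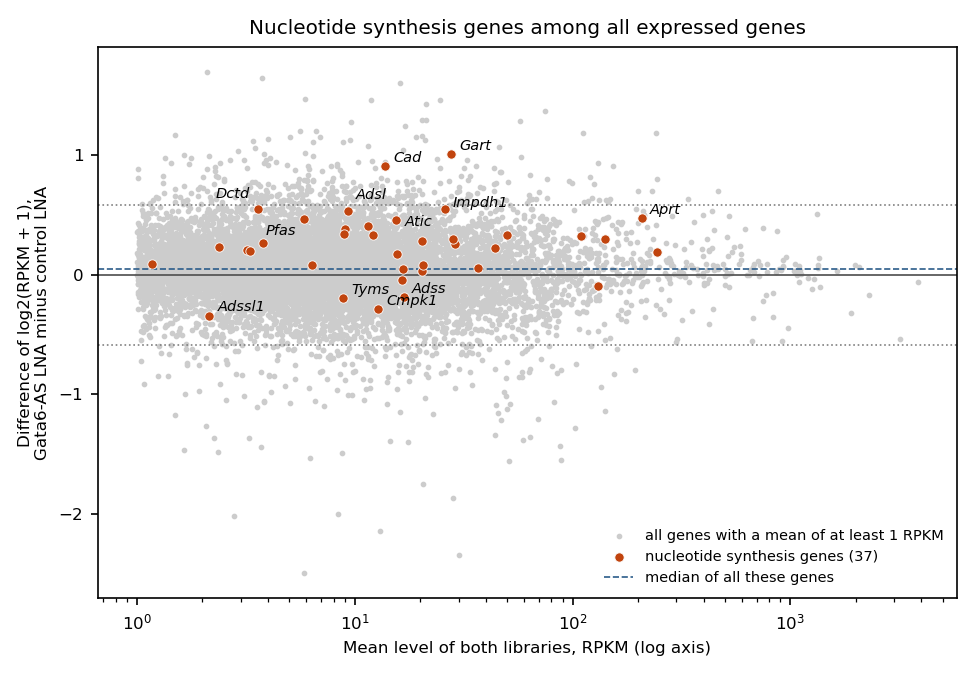
Difference of log2(RPKM + 1), Gata6-AS LNA minus control LNA, against the mean RPKM of both libraries (log axis) for 10868 genes in grey and the 37 nucleotide synthesis genes in red; dotted lines mark 1.5-fold and the dashed line the median of all genes, 0.05. Gart and Cad lie above the upper dotted line, no red point lies below the lower one, and 31 of 37 lie above 0.

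The ribonucleotide reductase genes and Samhd1 differed by less than 1.5-fold. Ribonucleotide reductase is formed by Rrm1 with either Rrm2, the S phase small subunit, or Rrm2b, the small subunit induced by p53. Rrm1 was at 37.6 RPKM in the Gata6-AS LNA library and 36.2 RPKM in the control LNA library (0.05), and Rrm2 was at 47.4 and 40.5 RPKM in the same libraries (0.22). Rrm2b was at 0.613 and 0.611 RPKM in the Gata6-AS LNA and control LNA libraries, or 100.4% of control (87.8% to 115%). Samhd1, which hydrolyses deoxynucleoside triphosphates, differed by 0.20.

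The thymidylate genes went both ways. Tyms, which methylates dUMP to dTMP, was at 8.19 RPKM in the Gata6-AS LNA library, against 9.54 RPKM in the control LNA library (-0.20), or 85.9% of control (82.9% to 89.0%). The other 3 genes around it lay above 0. Dctd, which makes dUMP by deaminating dCMP, was at 4.47 and 2.73 RPKM in the Gata6-AS LNA and control LNA libraries, or 163% of control (151% to 177%). Its log2 difference of 0.55 missed the 1.5-fold rule because of the added 1 RPKM, and the authors' deposited table listed it at 0.60 (p = 0.0623). Dut, the dUTPase, differed by 0.30 and Dtymk, the thymidylate kinase, by 0.28.

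All 3 deoxynucleoside kinase genes lay above 0, as did 58.0% of all genes averaging at least 1 RPKM. Tk1, the cytosolic thymidine kinase of S phase, was at 13.6 RPKM in the Gata6-AS LNA library and 10.6 RPKM in the control LNA library (0.33). Tk2, its mitochondrial counterpart, was at 3.51 and 2.92 RPKM in the Gata6-AS LNA and control LNA libraries (0.20). Dck, the deoxycytidine kinase, was at 4.22 and 3.33 RPKM in the same libraries (0.27). Tk1, Uck1, Umps and Prpsap1 share 10567, 4, 800 and 3430 bp, in that order, with a gene model on the opposite strand. For Tk1 that is its whole span. The overlapping models stood between 1.77 and 4.68 RPKM in the Gata6-AS LNA library and between 1.53 and 4.22 RPKM in the control LNA library.

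Replication genes, which share the S phase programme with Rrm2 and Tk1, centred on the difference of all genes. The 24 S phase replication genes had a median log2 difference of 0.05, the same as that of all genes. Of these, 15 lay above 0 (62.5%, beside 58.0% of all genes) and 9 below. Mcm7, a subunit of the replicative helicase, was the one past the 1.5-fold rule, at 48.3 RPKM in the Gata6-AS LNA library and 31.4 RPKM in the control LNA library (0.60). Pola1, named after its value was seen, was at 2.44 and 3.82 RPKM in the same libraries (-0.49), or 63.8% of control (60.6% to 67.1%). The authors' deposited table listed Mcm7 as higher and Pola1 as lower. The difference between this list and the nucleotide synthesis genes was not tested.

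Other genes of nucleotide metabolism were measured from lists of salvage, breakdown and transport. The 15 further purine genes averaging at least 1 RPKM had a median log2 difference of 0.19, with 10 above 0, 5 below and none past the 1.5-fold rule. Ak3, an adenylate kinase gene named after its value was seen, was just short of the rule downward. It was at 21.4 RPKM in the Gata6-AS LNA library and 32.4 RPKM in the control LNA library (-0.57). By the plain RPKM ratio, without the added 1 RPKM, Ak3 was past 1.5-fold lower, at 66.2% of control (62.9% to 69.6%). The authors' deposited table listed 2 of the 15 as lower and 0 as higher. The 10 further pyrimidine genes had a median of 0.28, with 7 above 0 (70.0%, beside 58.0% of all genes). Among them Nt5c, a nucleotidase, was at 24.0 RPKM in the Gata6-AS LNA library and 15.7 RPKM in the control LNA library (0.59). Of 4 nucleoside transporter genes, Slc29a2 was past the rule at 4.86 and 2.84 RPKM in the Gata6-AS LNA and control LNA libraries (0.61). The other 3, named after their values were seen, lay below 0. Slc28a1 differed by -0.48 (68.0% of control), Slc29a1 by -0.06 and Slc29a3 by -0.01. For Slc29a3 the interval of 94.4% to 105% of control included no change. The authors' deposited table listed Slc29a2 as higher and Slc28a1 as lower.

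Folate enzymes supply the formyl groups that Gart and Atic products use and the methyl group that the Tyms product uses. Past the 1.5-fold rule were 5 of the 8 such genes measured, 2 as higher and 3 as lower. Mthfd1, the cytosolic trifunctional enzyme, was at 28.5 RPKM in the Gata6-AS LNA library, against 12.2 RPKM in the control LNA library (1.16). Shmt1, the cytosolic serine hydroxymethyltransferase, named after its value was seen, was at 13.0 and 7.85 RPKM in the Gata6-AS LNA and control LNA libraries (0.66). The 3 lower genes encode mitochondrial enzymes. Mthfd2 was at 32.3 RPKM, against 85.7 RPKM in the control LNA library (-1.38). Shmt2 was at 32.9 RPKM, against 70.6 RPKM in the control LNA library (-1.08). Aldh1l2 was at 0.443 RPKM, against 1.71 RPKM in the control LNA library (-0.91). The genes past the rule therefore differed in direction by the compartment of their products, a grouping made after the values were seen.

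Of the transcription factor genes linked to nucleotide synthesis, Mycn, a MYC family factor, was at 37.9 RPKM in the Gata6-AS LNA library and 24.8 RPKM in the control LNA library (0.59). It was the one of 6 measured regulators past the 1.5-fold rule, and 3 of the 6 lay above 0 and 3 below. Trp53, which encodes p53, was just short of the rule at 8.24 RPKM in the Gata6-AS LNA library and 5.20 RPKM in the control LNA library (0.58). Its level was 159% of control (151% to 167%), against 153% (149% to 157%) for Mycn, and it is named here after its value was seen. The authors' deposited table listed Trp53 at 0.60 (p = 0.0452) and Mycn at 0.62 (p = 0.0262). E2f3 went the other way, at 6.88 RPKM in the Gata6-AS LNA library and 9.27 RPKM in the control LNA library (-0.38). The authors' deposited table listed it as lower, at -0.48. Of the remaining measured regulators, Myc differed by 0.35, Atf4 by -0.02 and E2f1 by -0.15. These and E2f3 are also named after their values were seen. The part of any of these regulators in the levels of the nucleotide synthesis genes was not tested.

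**Figure D4:**
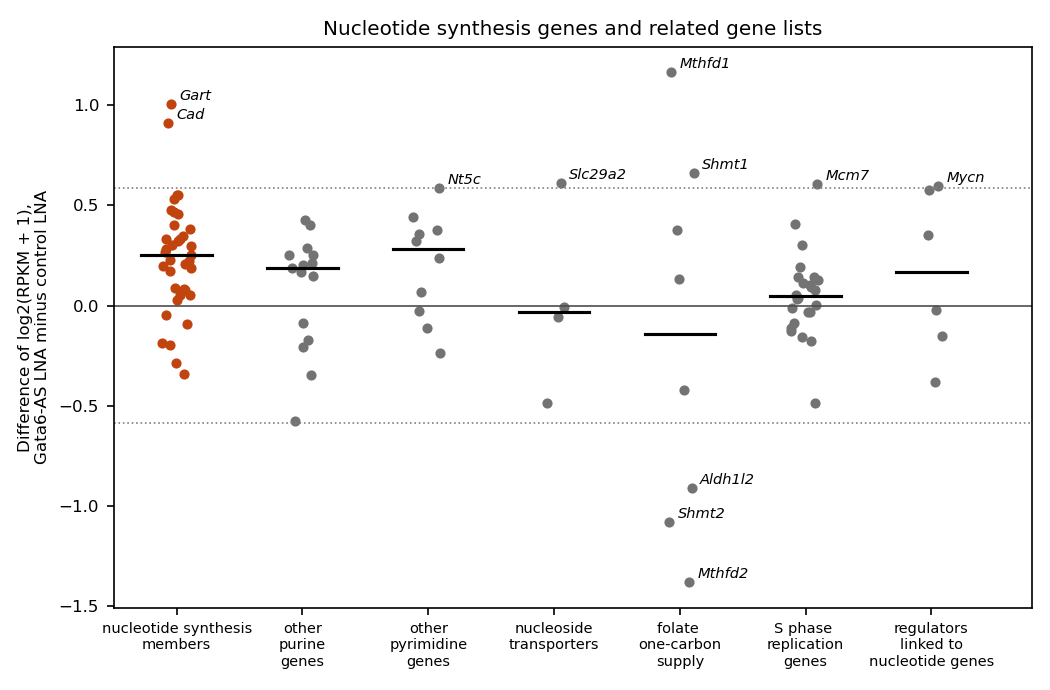
Difference of log2(RPKM + 1), Gata6-AS LNA minus control LNA, for each gene averaging at least 1 RPKM in the nucleotide synthesis list (red) and 6 related lists (grey), with the list median as a black bar and 1.5-fold as dotted lines; genes past 1.5-fold are named. Folate genes spread from -1.38 (Mthfd2) to 1.16 (Mthfd1), while the S phase replication genes centre on 0.05.

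The authors' deposited table lists genes that passed their p limit. It held 9 of the 37 genes averaging at least 1 RPKM, 8 as higher, where 6.23% of all genes at that level were listed as higher, and 1 as lower, where 5.71% were. The 8 were Gart, Cad, Impdh1, Adsl, Dctd, Atic, Aprt and Pfas, and the one listed as lower was Adssl1. Upp1, whose mean of 0.877 RPKM left it outside the 37, was also listed as lower. Its listed log2 difference of -1.69 was the largest in either direction among the nucleotide synthesis genes in that table. Both tables come from the same 2 libraries, so these listings are no independent check.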

How the data were processed

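RNA of 2 samples of PS10 XEN cells, 1 per group by their titles, was sequenced. The authors' deposited table gives RPKM per gene, per the file headers. In another deposited table the authors give log2 values, log2 differences and p-values of genes they selected. TopHat and mm9 are named in the submitters' processing notes; the counting tool, annotation and strand use remain not given in the sources used here. The measure was the difference of log2(RPKM + 1), Gata6-AS LNA minus control LNA; no test was made. A gene was measured at a mean of 1 RPKM or more, and 10 small RNA features were left out. For a symbol on several rows the row with the highest mean was used. Tables were joined by coordinates and strand.

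The reads behind a value are the smallest whole numbers that give both RPKM values at one length of at most 30000 bp (tolerance 3e-07 of the reads plus 0.0002), with the value of 1 read taken from 808 single-exon genes in the Gata6-AS LNA library and 764 in the control LNA library. Intervals are exact binomial (Clopper-Pearson) at 95%. The calculation was tested on simulated data. Of 110 symbols in the other lists 108 were matched. Named are all 40 genes, in other lists up to 4 genes past 1.5-fold, the targeted RNA and the marker genes. Besides these, Shmt1, Trp53, Ak3 and Pola1 were named after their values were seen. The same holds for the other measured regulators and nucleoside transporters within 1.5-fold. The members and lists were chosen with earlier results of these data known. Alternatives were other pseudocounts, scalings and filters, and leaving out genes that overlap another gene, which was chosen after seeing the data. Python 3.11.15, pandas 2.3.3, NumPy 2.4.6 and SciPy 1.17.1 were used.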

Additional observations from a re-analysis of the deposited data

How the results depend on the processing

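No paired analysis was possible because each group is 1 library and no test was made. The median log2 difference of the members was 0.25 as reported and between 0.21 and 0.29 under the 7 alternatives. Above 0 were 31 of 37 members with a pseudocount of 0.1 or 0.5 RPKM, beside 58.0% of all genes. With libraries scaled to 1000000 summed RPKM it was 31 of 37 (54.2% of all genes). With the median of expressed genes set to 0 it was 30 of 37 (50% of all genes). At a mean of at least 5 RPKM it was 25 of 30 (56.4%), and without overlapping genes 23 of 27 (58.0%). Without a filter it was 33 of 40, beside 41.6% of all 26117 rows. At least 1.5-fold higher were 3 members, against 2 as reported, with pseudocounts of 0.1 RPKM (5.7% of all genes) and 0.5 RPKM (4.3%). The count was also 3 with libraries scaled to 1000000 summed RPKM (4.4% of all genes). Gart no longer passed the 2-fold rule with the median of expressed genes set to 0, which leaves 0 members past it. At that setting 0.285% of all genes were at least 2-fold higher. The 10 measured genes that overlap another gene were left out in an alternative chosen after seeing the data. There 1 member was at least 1.5-fold higher (3.42% of all genes). At least 2-fold higher were 0 members (0.331% of all genes), because Gart is then left out. Without a filter 1 member, Upp1, was at least 1.5-fold lower, beside 0.842% of all rows. Of the medians by role, that of the CTP synthases, reported at 0.17 from Ctps alone, was 0.12 with the median of expressed genes set to 0, 0.15 with libraries scaled to 1000000 summed RPKM and 0.0865 without a filter. With a pseudocount of 0.1 RPKM the median of the deoxynucleoside kinases was 0.33, against 0.27 as reported, and that of ribonucleotide reductase and Samhd1 was 0.23, against 0.20; with 0.5 RPKM the last was 0.22. That last median was lower, at 0.12, without a filter, and at 0.14 at a mean of at least 5 RPKM. Restricting genes to a mean of at least 5 RPKM also gave 0.50 for de novo UMP synthesis, against 0.23 as reported, and 0.19 for the AMP and GMP branches, against 0.08. With the median of expressed genes set to 0 the AMP and GMP branches were at 0.03 and PRPP synthesis at -0.02, against 0.03 as reported. Prps1, Rrm2b and Ctps2, all near 0, changed sign under at least 1 alternative, and the other 37 genes under none of those run. Variation between cultures cannot be estimated from 1 library per group, and counts of a few reads, as for Ctps2, allow no statement.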
